A study of Rattus norvegicus with 18 samples.

Results

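The second day of constant darkness was set against the first in the suprachiasmatic nucleus (SCN) of the rat, the small paired nucleus above the optic chiasm whose neurons keep the body's daily time. Arrays were assigned by sampling time: those of the pools taken at 24, 30, 36 and 42 h made up the second day (10 arrays) and those of the pools taken at 0, 6, 12 and 18 h the first (8 arrays), together all 18 arrays analysed. The second-day rats had spent 36 to 54 h in darkness and the first-day rats 12 to 30 h. All were adult male Long-Evans rats that had lived in a cycle of 12 h light and 12 h dark, all entered darkness at their usual lights-off, and all were killed under isoflurane, and the labels name no drug and no allele for either day. Each time point was 1 pool of RNA from 5 rats, so that each day had 4 pools, at circadian time (CT) 0, 6, 12 and 18, where CT 0 is the projected lights-on. A pool does not show the spread between its rats, and the p-values below measure the spread between pools together with array error. RNA was read on the rat U34A GeneChip, an oligonucleotide array on which 1 or more probe sets stand for a gene. A first run held 10 arrays, with an array a and an array b at 24 h and at 36 h of the second day, here taken to read the same pool, and a technical repeat, called the repeat run below, held 1 array per time point.

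In the SCN clock, CLOCK and BMAL1 activate the Per and Cry genes, whose products in turn repress them, and the loop goes on without light. Light adjusts it through glutamate and PACAP released by retinal fibres, which induce immediate early genes such as Fos and Egr1 in SCN neurons. In constant darkness that input is gone, and the free-running period of a rat is close to a day but not exactly so. The CT of the second-day pools was counted on a grid of 24 h, and a drift of the animals away from it was not tested.

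Transcripts that SCN neurons make were read on both days, and the share of these neurons in the tissue was not tested. Avp, which encodes vasopressin, averaged 1754 in second-day pools and 1711 in first-day pools (geometric means of intensity), and Gad1, the enzyme that makes GABA in nearly all SCN neurons, averaged 10970 in second-day pools and 10120 in first-day pools. Oxt, listed below as a marker of neighbouring hypothalamic neurons, averaged 2763 in second-day pools and 3331 in first-day pools. Vip, the peptide gene of the retinorecipient core, lay low on its probe set (37.5 to 68.4 in second-day pools and 30.9 to 78.6 in first-day pools), and Lhx1, a transcription factor of SCN neurons, was near the floor of 12.1 (means of 14.2 in second-day pools and 15.5 in first-day pools). Median intensities of the arrays were 107.9 to 152.3 on the second day and 115.1 to 152.2 on the first, with lower values in the repeat run on both days. In the first run, 3 arrays had hybridisation controls above those of the others: BioB was at 1987.7 on array 36 h b of the second day, and at 1752.8 and 1474.2 on the 12 h and 18 h arrays of the first day, against 313.1 to 721.3 on the rest. The 3′/5′ ratio of beta-actin, a sign of RNA quality, was 2.25 to 6.67 on second-day arrays and 2.02 to 20.9 on first-day arrays, where the first-run arrays at 0 h and 18 h stood apart at 17.0 and 20.9. That of GAPDH, a second control gene, was 14.3 to 32.5 on second-day arrays and 8.55 to 35.2 on first-day arrays. Here the first-run array at 0 h had the lowest ratio of all arrays and that at 18 h the highest. Two-sided exact permutation tests of 7 array summaries between the days, among them these ratios, gave p = 0.125 to 0.75 (adjusted p = 0.75 for each, smallest possible p = 0.125).

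Between the days 0 of 8673 probe sets passed in either direction. The test was limma's moderated test of a day term with the phase as a block, 4 pools per day, Benjamini-Hochberg adjustment over all probe sets and a threshold of 0.05. The share called was 0%, and the smallest adjusted p was 0.968. An unadjusted limma p under 0.05 was found for 423 probe sets (4.88%), 192 of them higher on the second day (2.21%) and 231 lower (2.66%). Without the 3 arrays with high hybridisation controls that count was 635, and 0 passed. At all 4 phases 463 probe sets were higher on the second day (5.34%) and 530 lower (6.11%). Every second-day pool lay above every first-day pool for 81 probe sets (0.934%) and below every first-day pool for 108 (1.25%).

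The pools limited how small a difference could be seen. Across all 8673 probe sets the 5th and 95th percentiles of the log2 difference, second minus first day, were -0.49 and 0.44, with 491 probe sets beyond 1.5-fold and 38 beyond 2-fold. Over the 4370 with a mean above the median level, a geometric mean intensity of 121, these percentiles were -0.32 and 0.30. Of these, 45 lay beyond 1.5-fold and 4 beyond 2-fold. The 95% interval of the difference reached 0.36 to either side at the median probe set, and for 96.3% of these probe sets the whole interval lay within a 2-fold change in either direction.

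The same pools read in both runs allowed the day difference to be measured in each. The level of a probe set was close between runs (r = 0.934 across 4370 probe sets above the median level, which share pools and probes), but its day difference was not: across the same probe sets the difference in the first run and that in the repeat run correlated at r = 0.00469, and 48.5% had the same sign. Across all 8673 probe sets r was 0.00787. The spread of the difference was wider in the first run (SD 0.31) than in the repeat run (SD 0.23). At single phases the correlation between runs was -0.08 at CT 0, 0.14 at CT 6, 0.11 at CT 12 and -0.06 at CT 18. These values describe these arrays, since probe sets are not independent replicates.

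**Figure D1:**
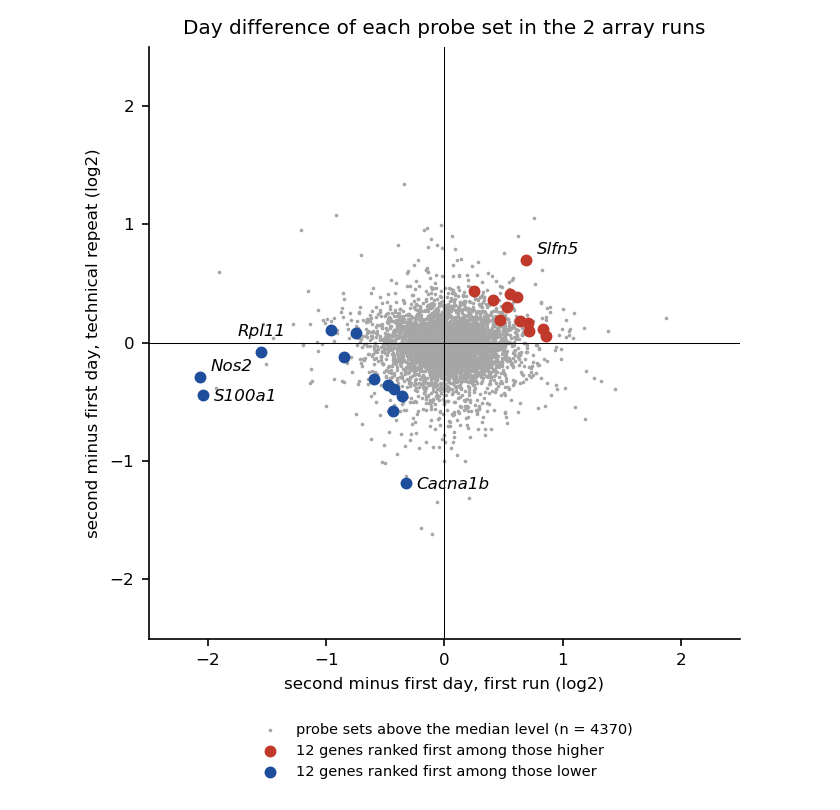
Log2 difference, second minus first day, in the first run (horizontal axis) and in the repeat run (vertical axis) for 4370 probe sets above the median level, with the 12 genes of smallest p in each direction in red (higher) and blue (lower). The cloud has no slope, with r = 0.00469 and 48.5% of probe sets of the same sign, and Slfn5 lies at 0.69 on the horizontal axis and 0.70 on the vertical axis.

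The genes described next are the 12 with the smallest p in each direction among probe sets above the median level, so their size and direction are what ranked them. None of the 24 passed (limma, adjusted p = 0.968 for each), and 12 of the 24 had days that did not overlap. Over the 4370 probe sets above the median level, days without overlap were found for 40 that were higher and 42 that were lower. The ranking by p of the same difference favours such genes. They are ordered here by what they encode. Exact permutation tests, which swap the days within phases in 16 arrangements, cannot go below p = 0.125 in this design, and 23 of the 24 genes reached that value.

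Sst was the 1 peptide gene in the ranking. It encodes somatostatin, an inhibitory neuropeptide made by SCN neurons and by neurons of the neighbouring periventricular zone. Its intensity was 5059, 4895, 4492 and 4786 in the second-day pools at 24, 30, 36 and 42 h, against 5823, 6410, 7656 and 5839 in the first-day pools at 0, 6, 12 and 18 h. All 4 second-day pools were below all 4 first-day pools, with the widest gap at CT 12. The log2 difference was -0.41 ± 0.13 (SE of the fit, 4 pools per day, limma, unadjusted p = 0.0111), with -0.43 in the first run and -0.39 in the repeat run. In the repeat run the second-day arrays read 3282.1 to 4525.1 and the first-day arrays 4683.6 to 5521.4, without overlap. In the first run the arrays marked b, at 8697 and 9930, lay within the first-day range of 6994.1 to 10616.3, and the other second-day arrays read 3807.5 to 6368.6. Without arrays b the difference was -0.54, without arrays a -0.28, and without the 3 arrays with high hybridisation controls -0.30. A second probe set of Sst averaged 764.9 in second-day pools and 928.1 in first-day pools, a log2 difference of -0.28 ± 0.11 (SE of the fit, 4 pools per day), again without overlap and of the same sign in both runs (-0.31 and -0.25). In bulk tissue, fewer cells of a type and less RNA per cell cannot be told apart.

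Slfn5, a member of the Schlafen family, had the smallest p among the genes that were higher. It read 342.1, 441.4, 355.1 and 489.2 in second-day pools from 24 to 42 h, against 231.1, 238.2, 221.9 and 311.3 in first-day pools from 0 to 18 h. Every second-day pool exceeded every first-day pool, by a log2 difference of 0.70 ± 0.14 (SE of the fit, 4 pools per day, limma, unadjusted p = 0.000968) that was nearly equal in the first run (0.69) and the repeat run (0.70). Only 1 probe set stood for it.

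Of the 12 genes on the higher side, 3 encode chaperones or a co-chaperone. Canx encodes calnexin, which helps glycoproteins fold in the endoplasmic reticulum, Hspd1 the mitochondrial chaperonin HSP60, and Dnaja2 a co-chaperone of HSP70. Hspd1 averaged 2160 in second-day pools and 1619 in first-day pools, a log2 difference of 0.42 ± 0.12 (SE of the fit, 4 pools per day), with 0.53 in the first run and 0.30 in the repeat run. Canx was at 0.47 ± 0.13, with 0.83 and 0.12, and Dnaja2 at 0.33 ± 0.10, with 0.47 and 0.19 in the same order of runs. The days overlapped for each of these genes. The brightest probe sets of Canx and Hspd1 gave smaller differences (0.24 and 0.16), 2 dimmer Canx probe sets gave -0.08 and -0.06, and the 2 dimmer Dnaja2 probe sets gave 0.18 and 0.09.

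Enzymes of intermediary metabolism appeared on both sides. Me1, the cytosolic malic enzyme that makes NADPH, read 581.7, 720.7, 597.1 and 665.5 in second-day pools, against 489.6, 487.2, 395.8 and 462.3 in first-day pools, without overlap. Its log2 difference was 0.48 ± 0.12 (SE of the fit, 4 pools per day), with 0.55 in the first run and 0.42 in the repeat run, but the brightest of its 5 probe sets gave 0.02. Psat1, an enzyme of serine synthesis, averaged 3884 in second-day pools and 2740 in first-day pools (0.50 ± 0.14), and its brightest probe set gave 0.23. On the lower side, Aldoc, the aldolase of astrocytes, averaged 368.6 in second-day pools and 504.8 in first-day pools (-0.45 ± 0.13), while its probe set at an intensity of 6089 gave -0.10. Aldh2, a mitochondrial aldehyde dehydrogenase, averaged 352.7 in second-day pools and 471.1 in first-day pools, at -0.42 ± 0.12. Within the respiratory chain Ndufb5, a subunit of complex I, was at 0.34 ± 0.10, with -0.67 on a probe set at a mean intensity of 34.6. Atp5f1d, a subunit of ATP synthase, was at -0.33 ± 0.10, with -0.75 in the first run and 0.09 in the repeat run.

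The ribosomal and proteasomal genes of the ranking were on the lower side, and those of the ribosome rested on the first run. Rpl11, of the large ribosomal subunit, read 321.2, 313.6, 202.4 and 333.7 in second-day pools, against 564.8, 474.4, 365.5 and 664.1 in first-day pools. All second-day pools were below all first-day pools, at a log2 difference of -0.81 ± 0.13 (SE of the fit, 4 pools per day, limma, unadjusted p = 0.000253). That difference was -1.55 in the first run and -0.08 in the repeat run, and the brighter Rpl11 probe set gave -0.03. The highest Rpl11 readings, 829.3 and 813.2, came from the first-day arrays of the first run at 0 h and 18 h. These arrays also had the highest beta-actin 3′/5′ ratios, while their GAPDH ratios were the lowest (8.55) and the highest (35.2) of all arrays. The part of RNA quality in the Rpl11 difference was not tested. Rps10, of the small subunit, was at -0.43 ± 0.14, with -0.96 in the first run and 0.11 in the repeat run. Psmb5, a catalytic subunit of the proteasome, was at -0.50 ± 0.16 with similar values in both runs (-0.44 and -0.57), but its brightest probe set gave 0.02.

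Genes of calcium handling and inhibition followed. S100a1 encodes a calcium-binding protein of the EF-hand type. It read 170.7, 102.9, 89.2 and 114.0 in second-day pools, against 237.5, 321.3, 232.6 and 313.9 in first-day pools, again without overlap. The log2 difference was -1.24 ± 0.24 (SE of the fit, 4 pools per day, limma, unadjusted p = 0.000822). All 4 of its probe sets were lower on the second day, by values of -1.24, -0.45, -0.35 and -0.19, but they were lower chiefly in the first run: the named probe set gave -2.04 there and -0.44 in the repeat run, and the brightest gave -0.72 and 0.01. Cacna1b, the pore of N-type calcium channels, was at -0.75 ± 0.18 on a dim probe set and at 0.23 ± 0.13 on the brighter one, so that its direction depended on the probe set. The dim probe set gave -0.33 in the first run and -1.18 in the repeat run. Gabbr1, a subunit of the GABA-B receptor, averaged 474.3 in second-day pools and 627.9 in first-day pools, without overlap, at -0.40 ± 0.12, with -0.36 in the first run and -0.45 in the repeat run. The other 3 Gabbr1 probe sets were at -0.13 to -0.25.

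The rest of the ranking held genes of other functions. Pcna, the sliding clamp of DNA replication, was at 0.43 ± 0.09, with 0.70 in the first run and 0.17 in the repeat run. Its dimmer probe set was at -0.02. Ankib1, a ubiquitin ligase, Septin8, a cytoskeletal GTP-binding protein, and Snx4, a sorting nexin of endosomes, were at 0.46, 0.41 and 0.41, with 0.63 to 0.86 in the first run and 0.05 to 0.19 in the repeat run. Gjb2, the gap junction protein connexin 26, was at 0.38 ± 0.12, with 0.41 in the first run and 0.36 in the repeat run. Spock2, an extracellular proteoglycan, was at -0.48 ± 0.11, with -0.85 in the first run and -0.12 in the repeat run. Nos2, the inducible nitric oxide synthase, was at -1.18 ± 0.30, with -2.06 in the first run and -0.29 in the repeat run. The other 3 probe sets of Nos2 gave 0.05 to 0.11.

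**Figure D2:**
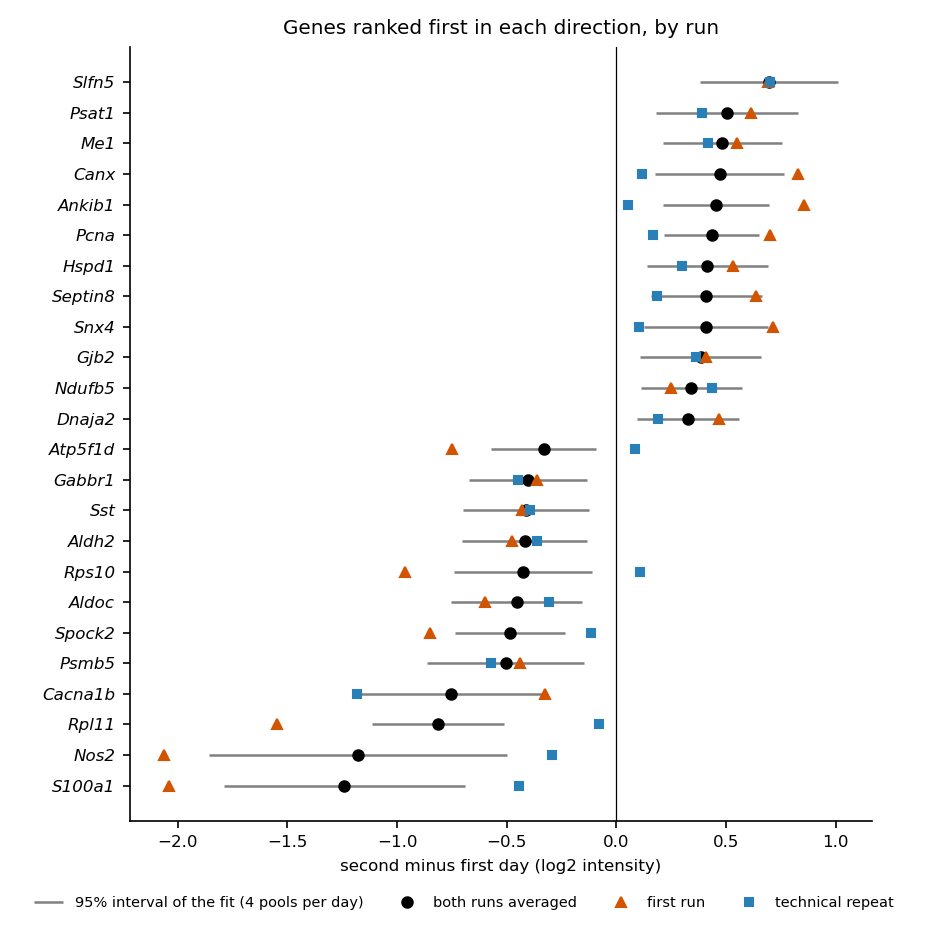
Log2 difference of intensity, second minus first day of constant darkness (horizontal axis), for the 12 genes ranked first in each direction. Black points average both runs with the 95% interval of the limma fit over 4 pools per day, triangles give the first run and squares the repeat run. Slfn5, Me1, Gjb2, Gabbr1, Aldh2 and Sst have nearly equal values in both runs, whereas S100a1, Nos2 and Rpl11 lie far lower in the first run.

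Over the ranking as a whole, 19 of 24 genes had the larger difference in the first run, 22 had the same sign in both runs, and 12 had a size of at least 0.3 with the same sign in both. Since the ranking used the mean of both runs, shared signs are partly built into it. Of the 17 ranked genes with several probe sets, 9 had every probe set in the same direction.

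In the gene lists each gene is given by its brightest probe set. Over all 4713 genes taken this way 2409 were higher and 2304 lower (48.9%), the median log2 difference was 0.01, and 4.63% had an unadjusted limma p under 0.05. Probe sets of a gene often differed: of the 218 listed genes with several, 95 had every probe set in the same direction.

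In the core clock, 6 of 12 measured genes were higher and 6 lower on the second day, and the median log2 difference was -0.01. Dbp, a clock-controlled transcription factor, read 515.8, 898.9, 1175 and 779.3 in second-day pools from CT 0 to CT 18, against 479.4, 827.6, 1243 and 840.7 in first-day pools at the same phases. The 2 days traced the same course, lowest at CT 0 and highest at CT 12, and their difference was 0.01 ± 0.10 (SE of the fit, 4 pools per day) with a 95% interval of -0.23 to 0.25. A dimmer Dbp probe set was at -0.42 ± 0.17.

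Bmal1, the activator of the loop, averaged 207.9 in second-day pools and 182.5 in first-day pools, at 0.19 ± 0.22, and its lowest first-day pool, 104.5 at CT 12, was well under the 161.6 of the second-day pool at that phase. A dimmer Bmal1 probe set was at 0.62 ± 0.37, with 0.94 in the first run and 0.30 in the repeat run. Per2, a repressor of the loop, averaged 273.2 in second-day pools and 236.9 in first-day pools, at 0.21 ± 0.23. Nr1d1 and Nr1d2, nuclear receptors that repress Bmal1, were at -0.21 ± 0.28 and 0.16 ± 0.13. Bhlhe41, a repressor of E-box transcription, averaged 4559 in second-day pools and 3983 in first-day pools, at 0.19 ± 0.15. For Per2, Nr1d2 and Bhlhe41 the difference was widest at CT 18, at 1.08, 0.60 and 0.71. At the other phases it was -0.25 to 0.04, -0.01 to 0.04 and -0.12 to 0.21, in the same order of genes. The first-day pool at 18 h was the lowest of all pools for each of these genes, at 150, 638.3 and 2652. Its first-run array had a beta-actin 3′/5′ ratio of 20.9 and high hybridisation controls. The CT 18 difference correlated between runs at -0.06 over probe sets above the median level. The part of array quality in these CT 18 values was not tested. Nr1d1 was higher at 3 phases, at 0.12 to 0.21, and lower at CT 6, at -1.355. Csnk1d, a kinase of the PER proteins, was at -0.19 ± 0.15. Tef and Hlf, relatives of Dbp, were at -0.05 ± 0.17 and 0.12 ± 0.27, Bhlhe40 at -0.02 ± 0.23 and Timeless, near the floor, at -0.26 ± 0.23. Rorb, an activator of Bmal1, was the 1 clock gene of 12 with an unadjusted limma p under 0.05 (8.33%, against 4.63% of all genes; -0.51 ± 0.18, p = 0.0239). It lay near the floor, at means of 14.7 in second-day pools and 20.9 in first-day pools, and gave -1.27 in the first run and 0.25 in the repeat run. By the brightest probe set, the 95% interval lay within a 2-fold change in either direction for all 12 clock genes. For 6 of them it lay within a 1.5-fold change.

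**Figure D3:**
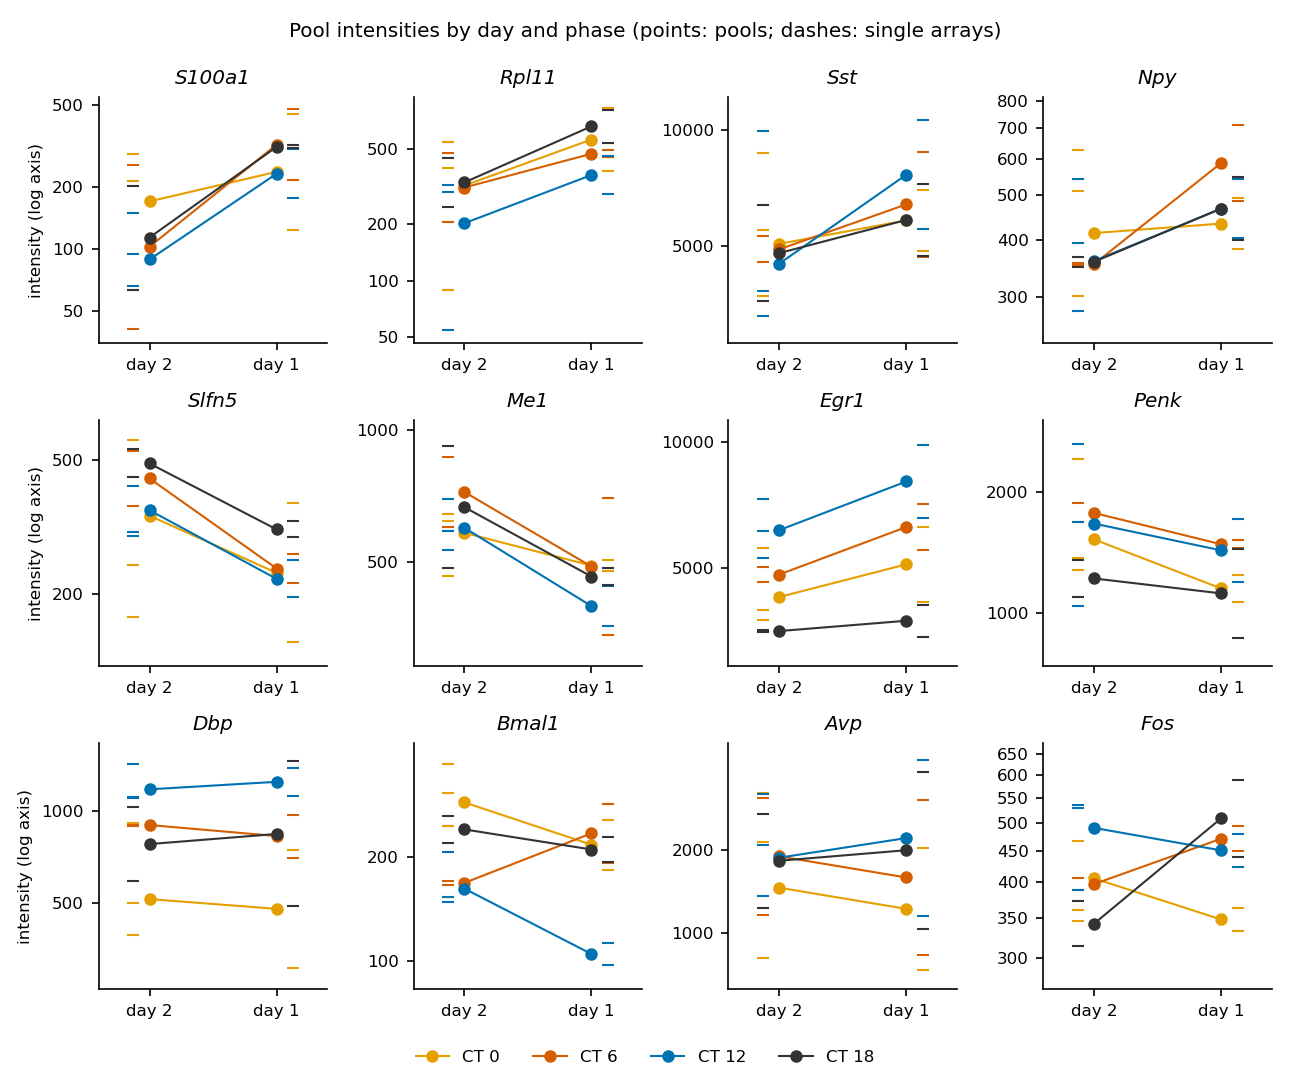
Intensity (log axes, set per gene) of 12 genes in the 4 second-day pools (left) and the 4 first-day pools (right), with lines joining the pools of a phase and dashes for single arrays. S100a1, Rpl11, Sst and Npy are lower and Slfn5 and Me1 higher in every second-day pool than in any first-day pool, while Dbp, Bmal1, Avp and Fos cross or overlap.

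The list of SCN neuropeptides and other markers of SCN neurons was split. Of its 13 genes 6 were higher and 7 lower, at a median of -0.05, and 2 had an unadjusted limma p under 0.05 (15.4%, against 4.63% of all genes), Sst and Penk. Penk encodes enkephalins and read 1524, 1774, 1669 and 1218 in second-day pools, against 1150, 1482, 1431 and 1118 in first-day pools, higher at each phase though the days overlapped, at 0.25 ± 0.10 (SE of the fit, 4 pools per day, p = 0.0319 by limma). The difference was 0.39 in the first run and 0.11 in the repeat run. Avp was at 0.04 ± 0.12, with -0.21 in the first run and 0.28 in the repeat run. Its second-day pools read 1461 at CT 0 and 1826 to 1894 at the other phases, and its first-day pools 1226 at CT 0 and up to 2204 at CT 12.

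Gal, which encodes galanin, was at -0.16 ± 0.10 and lower at all 4 phases, and Calb1, a calcium buffer of SCN neurons, at 0.11 ± 0.10 and higher at all 4. Cartpt, of the CART peptide, was at -0.24 ± 0.16, Calb2, of the calcium buffer calretinin, at -0.13 ± 0.13, Nmu, of neuromedin U, at -0.05 ± 0.14, Tac1, of substance P, at 0.05 ± 0.09 and Adcyap1, of PACAP, at 0.01 ± 0.10. Cck, of cholecystokinin, and Vip had the widest errors of the list, at -0.44 ± 0.37 and 0.20 ± 0.32.

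Genes that light induces in the SCN were also measured after a longer time without light. Of 25 in the list of light-induced and immediate early genes 10 were higher and 15 lower on the second day, at a median of -0.05, and 2 had an unadjusted limma p under 0.05 (8%, against 4.63% of all genes). Egr1, a zinc finger factor that follows neuronal activity, read 4261, 4822, 6155 and 3534 in second-day pools, against 5100, 6261, 8043 and 3740 in first-day pools of the same phases. It was lower at each phase, the days overlapped, and both days had their highest pool at CT 12 and their lowest at CT 18. The difference was -0.28 ± 0.11 (SE of the fit, 4 pools per day, limma, p = 0.0327), with -0.24 in the first run and -0.31 in the repeat run. Of its 3 other probe sets, all dimmer, 2 were lower (-0.36 and -0.14) and 1 higher (0.18). Without 1 pool or 1 phase pair the Egr1 difference ranged from -0.47 to -0.10.

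Fos, the usual marker of light-activated SCN neurons, averaged 405.6 in second-day pools and 440.5 in first-day pools, at -0.12 ± 0.16, with -0.33 in the first run and 0.09 in the repeat run, and 2 dimmer Fos probe sets were at 0.19 and 0.18. Arc, which is induced at active synapses, was at -0.15 ± 0.13 and lower at all 4 phases, and Nr4a2, an orphan nuclear receptor, at 0.36 ± 0.22 and higher at all 4. Its relative Nr4a3 was at -0.42 ± 0.23. Of other induced transcription factors, Jun was at -0.11 ± 0.22 and Junb at -0.05 ± 0.32, Egr2 at -0.17 ± 0.25 and Egr3 at -0.15 ± 0.30. The direction of Jun and Junb depended on the probe set: the dimmer Jun probe sets gave 0.13, 0.97 and -0.11, that at 0.97 having an unadjusted limma p of 0.0193, and the dimmer Junb probe set gave 0.84. Dusp1, a phosphatase of MAP kinases, was at -0.29 ± 0.35, and Bdnf and Vgf, which encode secreted neurotrophic proteins, at 0.00 ± 0.18 and -0.06 ± 0.10. Jund, the second gene with an unadjusted p under 0.05, was at 0.79 ± 0.30 (limma, p = 0.0283) but at means of only 26.9 in second-day pools and 15.6 in first-day pools, near the floor. For 20 of the 25 genes the 95% interval lay within a 2-fold change in either direction and for 12 within a 1.5-fold change.

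Receptors and kinases of the retinal input held 24 genes, 9 higher and 15 lower, at a median of -0.08. Mtnr1a, the melatonin receptor through which the pineal hormone acts on the SCN, read 22.6, 38.4, 57.8 and 32.5 in second-day pools, against 90.1, 64.9, 90.7 and 56.1 in first-day pools. It was lower at each phase, although 1 second-day pool exceeded the lowest first-day pool, at a log2 difference of -1.05 ± 0.33 (SE of the fit, 4 pools per day, limma, p = 0.0140), with -1.18 in the first run and -0.91 in the repeat run, at intensities below the median level of the array. Htr7, a serotonin receptor, was at 0.33 ± 0.15, and Gria1, a glutamate receptor subunit, at 0.43 ± 0.27, both higher at all 4 phases. The direction of Gria1 depended on the probe set, since its dimmer ones gave -0.16 and -1.21 (limma, unadjusted p = 0.0437 for the last). In the GABA list 6 of 16 genes were higher and 10 lower, at a median of -0.09. Gabrd, a subunit of extrasynaptic GABA-A receptors, was lower at each phase at -0.55 ± 0.20 (p = 0.0261 by limma), yet gave 0.21 in the first run and -1.31 in the repeat run. Gad1 was at 0.12 ± 0.14 and Gad2, a second GABA-making enzyme, at -0.50 ± 0.28.

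Among genes of protein folding and the heat shock response, 15 of 21 were higher and 6 lower (28.6%, against 48.9% of all genes), and 0 had an unadjusted limma p under 0.05 (0%, against 4.63% of all genes). The median of the list was 0.12, with 0.13 in the first run and 0.11 in the repeat run, and -0.02 at CT 6 against 0.08 to 0.14 at the other phases. Hsph1, a large chaperone, averaged 5887 in second-day pools and 5044 in first-day pools, at 0.22 ± 0.12, with 0.23 in the first run and 0.21 in the repeat run. Hsp90b1, a chaperone of the endoplasmic reticulum, was at 0.21 ± 0.11 and higher at all 4 phases, while a probe set of nearly the same intensity gave -0.04. Dnajb9, a co-chaperone there, was at 0.22 ± 0.15. Calr, which encodes calreticulin, was at -0.22 ± 0.16, and its dimmer probe sets at 0.34 and -0.38.

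Genes that respond to glucocorticoids, the adrenal hormones that peak once a day under the control of the SCN, were higher for 9 of 13, at a median of 0.17. Klf9, a transcription factor induced by the glucocorticoid receptor, read 2242, 2515, 3104 and 2308 in second-day pools, against 1603, 2149, 2843 and 1849 in first-day pools. It was higher at each phase, at 0.29 ± 0.10 (SE of the fit, 4 pools per day, limma, p = 0.0214), with 0.31 in the first run and 0.26 in the repeat run, but its dimmer probe set was at -0.05. Cdkn1a, an inhibitor of the cell cycle, was at -0.39 ± 0.26, Sult1a1, a sulfotransferase, at 0.23 ± 0.16, Cebpd, a transcription factor, at 0.27 ± 0.18 and Nr3c1, the receptor gene itself, at 0.16 ± 0.18.

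Cytosolic ribosomal protein genes were lower for 28 of 37 on the second day, at a median of -0.12. The median was -0.30 in the first run and 0.08 in the repeat run, so the direction differed between runs of the same pools. Of the 5 with an unadjusted limma p under 0.05 (13.5%, against 4.63% of all genes), Rps10, Rps29, Rpl24 and Rpl35a were at -0.43 to -0.25, with -0.96 to -0.50 in the first run and -0.10 to 0.11 in the repeat run, and Rpl17 was higher at 0.52 ± 0.20. In oxidative phosphorylation 18 of 31 genes were higher, at a median of 0.01, and 6 had an unadjusted limma p under 0.05 (19.4%, against 4.63% of all genes), 3 in each direction. Cox4i1, of cytochrome c oxidase, and Ndufv2, of complex I, were at 0.33 ± 0.12 and 0.34 ± 0.12 with the same sign in both runs, and Cox6b1 and Cox6c, also of cytochrome c oxidase, at -0.41 ± 0.15 and -0.42 ± 0.18. In the other 6 lists (glycolysis, cholesterol and fatty acid synthesis, calcium-binding proteins, the proteasome, vesicle release, and potassium and calcium channels) the medians lay between -0.06 and 0.00. Over all 23 lists, cell type markers included, the medians of the first run and the repeat run had the same sign in 13.

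**Figure D4:**
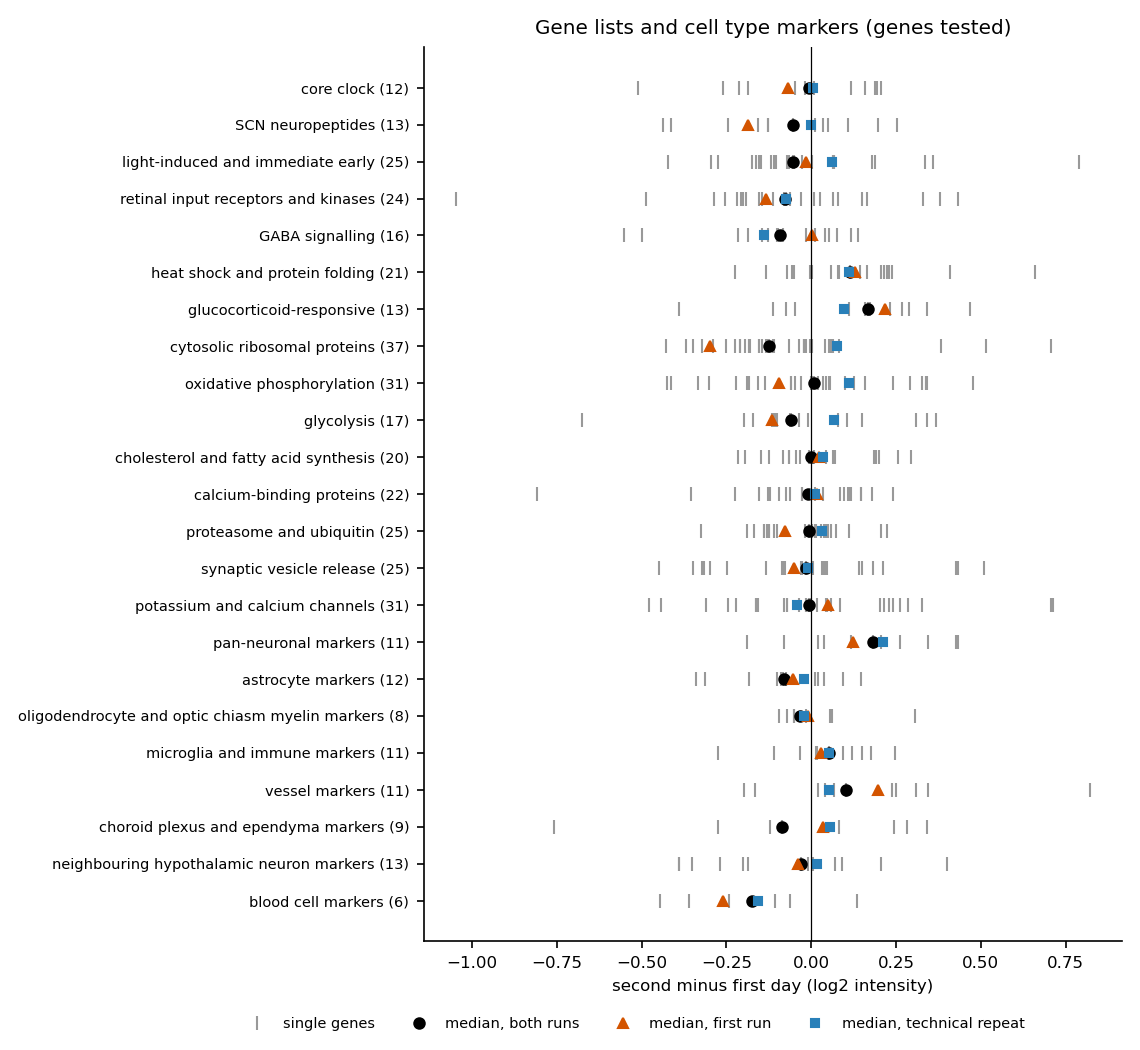
Log2 difference of intensity, second minus first day, for each measured gene of 15 gene lists and 8 lists of cell type markers (ticks, each gene by its brightest probe set), with the list median over both runs (circles), in the first run (triangles) and in the repeat run (squares). The medians over both runs lie between -0.17 and 0.18. Those of the single runs had the same sign in 13 of 23 lists, and the ribosomal proteins are among the lists where they fall on opposite sides of 0.

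Markers of the cell types that the dissection could hold had list medians between -0.17 and 0.18. The median difference was 0.18 for 11 pan-neuronal markers (9 higher), -0.08 for 12 astrocyte markers (5 higher), -0.03 for 8 myelin markers of oligodendrocytes and the optic chiasm (3 higher), 0.05 for 11 microglial and immune markers (8 higher), 0.10 for 11 vessel markers (9 higher), -0.09 for 9 markers of choroid plexus and ependyma (4 higher), -0.03 for 13 markers of neighbouring hypothalamic neurons (5 higher) and -0.17 for 6 blood cell markers (1 higher). The median for choroid plexus and ependyma had no settled direction, being 0.03 in the first run and 0.06 in the repeat run. It had the other sign in 15 of the 28 alternative settings described below. Among the neuronal markers the neurofilament genes Nefh, Nefm and Nefl were at 0.34 ± 0.13, 0.21 ± 0.12 and 0.26 ± 0.15, of the same sign in both runs, and Snap25, of the synaptic fusion machinery, was at 0.43 ± 0.20. Dimmer probe sets gave -0.37 for Nefh and -0.02 for Snap25. The pan-neuronal median was 0.04 at CT 0 and -0.0003 at CT 6, against 0.28 at CT 12 and 0.26 at CT 18. Myelin marker intensities summed to 33780 to 38680 in second-day pools and 33730 to 37800 in first-day pools. By phase, however, the myelin median was 0.22 at CT 0 and 0.27 at CT 6, but -0.24 at CT 12 and -0.19 at CT 18. The astrocyte median was 0.10, 0.16, -0.19 and -0.10 at the same phases. Medians near 0 over all phases thus do not show that paired pools held alike amounts of these cells.

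Npy, which encodes neuropeptide Y and is made by neurons of the arcuate nucleus, also had days that did not overlap. It read 413.2, 353.6, 359.1 and 357.9 in second-day pools, against 433.3, 587.2, 466.8 and 467.3 in first-day pools. Its log2 difference was -0.39 ± 0.14 (SE of the fit, 4 pools per day, limma, p = 0.0254), with -0.40 in the first run and -0.38 in the repeat run. Among the markers of neighbouring neurons Ghrh (-0.18 ± 0.11, with dimmer probe sets from -0.92 to 0.34) and Crh (-0.35 ± 0.24) were also lower at all 4 phases, whereas Th (0.00 ± 0.11), Hcrt (-0.01 ± 0.13), Pdyn (-0.03 ± 0.09) and Trh (0.09 ± 0.11) were not. Oxt (-0.27 ± 0.15, with -0.63 in the first run and 0.09 in the repeat run) and Pomc (-0.39 ± 0.25) were lower at 3 of 4 phases. Of the 13 markers, 5 were higher and 8 lower, with log2 differences from -0.39 to 0.40. The 13 markers summed to 8486 to 9692 in second-day pools and 9060 to 10690 in first-day pools, and the part of the dissection in the Sst and Npy values was not tested.

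Of the haemoglobin transcripts of residual blood, Hbb averaged 4558 in second-day pools and 6206 in first-day pools (-0.45 ± 0.19, limma, unadjusted p = 0.0429), and Hbb-b1 was at -0.36 ± 0.17. These are near-identical genes whose probes can share transcripts. Both were lower at all 4 phases, but the Hbb difference was -1.12 at CT 0 and -0.56 at CT 18, against -0.08 at CT 6 and -0.02 at CT 12. Without 1 pool or 1 phase pair it ranged from -0.59 to -0.22. Hba-a3 was at -0.24 ± 0.44, lower at 2 phases and higher at 2.

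Of the 9 choroid plexus and ependyma markers, 3 were higher at all 4 phases. These were Igfbp2, Enpp2 and Igf2, at 0.34 ± 0.14, 0.24 ± 0.11 and 0.28 ± 0.13. A second Enpp2 probe set of nearly the same intensity gave 0.00, with 0.26 in the first run and -0.26 in the repeat run, and the second brightest Igf2 probe set gave 0.05. Aqp1 was at -0.76 ± 0.43.

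Pairs of pools at the same phase were also compared one by one. The SD of the difference across probe sets above the median level was 0.33 at CT 0, 0.39 at CT 6, 0.40 at CT 12 and 0.43 at CT 18. More than 2-fold higher on the second day were 27 probe sets at CT 0, 35 at CT 6, 54 at CT 12 and 94 at CT 18, and more than 2-fold lower were 36, 61, 72 and 32 at the same phases. Among the 186 of these probe sets with an unadjusted p under 0.05 over all phases, 161 had the same sign in both runs, a share that the choice by the mean of both runs raises.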

How the data were processed

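RNA pools of 8 time points were read on 18 rat U34A arrays. The values are intensities per probe set on a linear scale, as deposited by the authors. The summarising algorithm is not given in the sources used here, and the trimmed mean of each array (2% at each end) lay between 499.3 and 500, so the arrays were already scaled. The number of arrays limits the precision. Arrays a and b were assumed to read 1 pool, since no label says so.

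Intensities under the 10th percentile of the table (12.1) were set to that floor and log2-transformed, arrays a and b were averaged, then both runs. Of 8799 probe sets, 59 controls and 67 at the floor on every array were left out. The platform annotation gave 7006 of the 8740 others 1 symbol, 308 several and 1426 none. limma 3.58.1 in R 4.3.3 (lmFit, eBayes with trend) fitted the day with phase as a block, 3 residual and 4.99 prior degrees of freedom, Benjamini-Hochberg adjustment and a threshold of 0.05; single values also had the exact within-phase swap test. The fit was tested on simulated data.

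The comparison, the members and the lists were chosen with earlier results of these data known. Named genes are the 12 with the smallest p in each direction among probe sets with 1 symbol and a mean above the median, every measured gene of the clock, neuropeptide and light-induced lists, and up to 4 genes of each other list by p, each by its brightest probe set. Alternatives changed the normalization, low values, level filter, eBayes options, phase block, runs, arrays a or b, replicate unit and the pools entering; leaving out the 3 arrays with high hybridisation controls was chosen after seeing the data. Pairing follows the phase in the labels; rats differ between days, so pairs share no animal. No genome was used, and the SCN2.2 cell line was not analysed here.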

Additional observations from a re-analysis of the deposited data

Results flagged for a closer look

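Within a day, a pool was singled out where its gap to the nearest of the other 3 exceeded Dixon's 95% critical value for 4 samples. This was tested in 298 groups (149 named probe sets on 2 days) and met by 29. Chance gives about 1 in 20 for 4 draws from the same population, but the 4 pools of a day differ in circadian phase. The count is therefore no measure of aberrant pools. Avp was lowest at CT 0 on both days (1461 on the second, 1226 on the first), and Bmal1 at CT 12 (161.6 and 104.5). The part of daily rhythm in these flags was not tested. On the second day, the 24 h pool was apart for Avp (1461, others 1826 to 1894), Gabrd (216.3, others 132.9 to 142.2), Npy (413.2, others 353.6 to 359.1), Hbb (3667, others 4810 to 5026) and Alas2, the heme synthesis enzyme of red cells (597.5, others 721.1 to 748.8). The 30 h pool was apart for Lhx1 (12.1, the floor, others 14.9 to 15.0) and Bdnf (179.0, others 219.5 to 225.5). The 36 h pool was apart for Dnaja2 (2415, others 3277 to 3398), Rpl11 (202.4, others 313.6 to 333.7), the brightest S100a1 probe set (1125, others 1418 to 1458) and Pdk4, a kinase that restrains glucose oxidation (37.7, others 12.1 to 13.2). The 42 h pool was apart for Nr4a3 (83.5, others 167.9 to 185.5) and Dhcr7, an enzyme of cholesterol synthesis (496.6, others 658.2 to 684.2).

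On the first day, the 0 h pool was apart for Nptx2, a synaptic pentraxin (414.7, others 531.4 to 552.1), Fosl1 (19.2, others 14.7 to 15.2), Cdkn1a (188.6, others 368.2 to 379.7), Pdk4 (16.1, others 12.1 to 12.5) and Kcna2, a potassium channel (14.8, others 12.1). The 6 h pool was apart for Egr4 (366.1, others 401.3 to 405.9) and Gabrd (251.1, others 217.2 to 222.3). The 12 h pool was apart for Ndufb5 (4335, others 3114 to 3271), Aldh2 (351.6, others 505.1 to 535.1), Bmal1 (104.5, others 209.8 to 233.7), Camk2a, a calcium-dependent kinase (60.6, others 30.6 to 32.4), and Col3a1, a collagen of vessel walls (80.9, others 236.1 to 268.2). The 18 h pool was apart for Gad1 (7952, others 10650 to 11260), Acaca, of fatty acid synthesis (22.5, others 31.0 to 32.1), the proteasome subunit Psma2 (2385, others 3059 to 3156) and the brighter Cacna1b probe set (1224, others 1585 to 1643). Lhx1, Fosl1, Kcna2 and Pdk4 lie near the floor.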

How the results depend on the processing

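The day comparison was repeated under 28 alternatives, and limma called 0 probe sets in each. Its smallest adjusted p lay between 0.265 (single arrays, pool as a random block) and 0.999. The single-array fit estimated the correlation of arrays of a pool at -0.106. Repeat arrays of a pool thus counted in it at least as independent replicates, which makes its p-values too small. The count at an unadjusted p under 0.05 was 210 of 4370 probe sets above the median level and 115 of 2185 above the 75th percentile, where fewer probe sets were tested, and 635 without the 3 arrays with high hybridisation controls; there the cause was not tested. Without the replicate block (phase), which pairs the pools, 0 were called and 357 had an unadjusted p under 0.05. Leaving out each phase pair or pool in turn gave counts of 321 to 513. The correlation of the day difference between runs ranged from -0.0258 to 0.0256. Of the 24 ranked genes 22 kept their sign in every setting in which they were tested. They were ranked by p in the same pools that the settings reuse, so kept signs are largely built in. Of the 149 named probe sets, the ranked ones included, 83 kept their sign, whereas the median of 18 of 23 lists changed sign in at least 1 setting. The lists of heat shock, glucocorticoid-responsive, pan-neuronal and blood cell genes did not, nor did that of SCN neuropeptides, whose median reached 0 in the technical repeat. Signal limited the precision: the median SE of the day difference was 0.16 above the median level and 0.30 at or below it.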

Other observations

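Arrays marked a and b did not read alike. Across 4370 probe sets above the median level, as deviations from the mean of the first run, 24 h a and 24 h b correlated at r = -0.356 and 36 h a and 36 h b at -0.268. Arrays of the same letter did so at 0.547 (24 h b with 36 h b) and 0.310 (24 h a with 36 h a). Each first-run array correlated with the technical repeat of its own time point at -0.0125 to 0.192, and for 4 of 10 arrays that was its highest correlation with any repeat array. A fit that let arrays of a pool be correlated estimated that correlation at -0.106. Probe sets share arrays and are not independent, so these values are a description.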
